A study of Mus musculus with 10 samples.

Results

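A set of 10 genes of neutrophils and of interleukin 1 (IL-1) inflammation was followed in mouse cutaneous squamous cell carcinoma (SCC): *S100a8*, *S100a9*, *Csf3r*, *Cxcr2*, *Retnlg*, *Il1a*, *Il1b*, *Il1rn*, *Csf3* and *Ptgs2*. They were taken by symbol, and all 10 were found among the 35275 genes listed for each of the 10 tumors. RNA-seq had been made from 5 tumors labelled *Ldha*-null (LDHA-/-), in which lactate dehydrogenase A was to be deleted, and from 5 labelled wild type. By the study's methods, tumors of both genotypes arose on a mixed C57BL6/FVB background in mice of both sexes, either with *K15-CrePR* or *Lgr5-CreER*, which place an inducible Cre in hair follicle stem cells, to recombine the alleles of the model, *p53* fl/fl among them, or by DMBA and TPA painting, and *Ldha* fl/fl was added for the *Ldha*-null group. Which of these models, inducers and ages belongs to each sequenced tumor is not given. The source is labelled as squamous carcinoma cells, but RNA was taken from fresh tumors with no sorting described, so fewer cells of a type and less RNA per cell cannot be told apart in any value here.

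Neutrophils are short-lived phagocytes that leave the bone marrow under granulocyte colony-stimulating factor, the product of *Csf3*, which acts through the receptor *Csf3r*, and they follow CXC chemokines into tissue through *Cxcr2*. IL-1 alpha and IL-1 beta signal through a shared receptor that the antagonist encoded by *Il1rn* can occupy without signalling, and IL-1 signalling induces cyclooxygenase 2 (*Ptgs2*), *Csf3* and CXC chemokines in keratinocytes, fibroblasts and endothelium. *S100a8* and *S100a9* encode the 2 chains of calprotectin, a calcium-binding protein that neutrophils hold in large amounts and that keratinocytes of wounded or hyperplastic skin also make.

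*S100a8* and *S100a9* lie on mm10 chromosome 3 on opposite strands, with 22597 bases between them, and *Il1a* and *Il1b* lie in the same orientation on chromosome 2, 54597 bases apart. The 250 bases before the RefSeq start of these 4 genes (GRCm38.p6, the assembly behind mm10) are printed because each pair is compared over the tumors further on. Capitals mark matches on either strand to 4 motifs, none of which overlap here. They are the promoter box TATAAA, the Ets letters GGAAGT, the C/EBP letters TTGCNNAA and, for AP-1, the letters TGANTCA.
S100a8, chr3:90668821-90669070, plus strand: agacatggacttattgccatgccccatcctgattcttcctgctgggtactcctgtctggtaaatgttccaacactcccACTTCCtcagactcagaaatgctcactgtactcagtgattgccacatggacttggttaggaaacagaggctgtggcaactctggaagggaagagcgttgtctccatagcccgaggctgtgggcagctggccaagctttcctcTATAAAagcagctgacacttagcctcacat
S100a9, chr3:90695722-90695971, minus strand: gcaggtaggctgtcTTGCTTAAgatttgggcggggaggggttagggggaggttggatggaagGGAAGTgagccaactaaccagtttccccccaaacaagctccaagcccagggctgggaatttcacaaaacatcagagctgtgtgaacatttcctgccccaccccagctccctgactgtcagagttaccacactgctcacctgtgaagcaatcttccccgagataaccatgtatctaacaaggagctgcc
Il1a, chr2:129309973-129310222, minus strand: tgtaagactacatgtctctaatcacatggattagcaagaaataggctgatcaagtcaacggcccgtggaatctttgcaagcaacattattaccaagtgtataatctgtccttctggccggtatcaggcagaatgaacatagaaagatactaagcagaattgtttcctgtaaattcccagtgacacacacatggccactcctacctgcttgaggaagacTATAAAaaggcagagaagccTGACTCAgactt
Il1b, chr2:129371140-129371389, minus strand: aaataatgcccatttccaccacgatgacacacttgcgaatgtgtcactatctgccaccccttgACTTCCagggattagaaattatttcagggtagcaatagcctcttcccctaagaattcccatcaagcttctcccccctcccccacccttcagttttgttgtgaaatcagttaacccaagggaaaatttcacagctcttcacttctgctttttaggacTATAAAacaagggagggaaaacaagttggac

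The letters TATAAA stood before *S100a8*, *Il1a* and *Il1b* at 25 to 32 bases from the start, and were not in the *S100a9* window, which held a C/EBP match 236 bases before its start. *Il1a* had an AP-1 match 12 bases before its start. Windows were found for 9 of the 10 genes, *Csf3* being named only. Of 32851 windows of this length in the RefSeq table, 12.4% held TATAAA, 6.75% the AP-1 letters, 9.56% the C/EBP letters and 19.7% the Ets letters. An NF-kB motif was searched as well and matched 7.91% of these windows. Among the 10 genes it matched only *Ptgs2*, and so none of the windows printed above. These matches describe the letters and not binding.

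Total counts were 12969508 to 17694201 per tumor. Tumor composition differed within both genotypes: skeletal muscle genes stood out in *Ldha*-null tumor 1 (*Ckm*, muscle creatine kinase, 5646 FPKM against at most 4.19 elsewhere), and keratins in *Ldha*-null tumor 3 and wild-type tumor 5 (*Krt14* 28399 and 28691 FPKM, 138 to 4195 elsewhere). *Vim*, a mesenchymal filament, was at 198 to 1485 FPKM in these 3 tumors and at 4101 to 6043 FPKM in the other 7, and hemoglobin RNA (*Hbb-bs*) reached 32090 FPKM in tumor 3 of the *Ldha*-null group against at most 999 in the others. Results are therefore given with and without these 3 tumors. *Ldha* itself did not separate the labels, with 246 to 1882 FPKM with the *Ldha*-null label and 340.1 to 2824 FPKM in the wild-type group, and a gene total does not show whether a deleted part is missing. Every direction between genotypes below rests on the labels alone.

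The levels that follow are FPKM (fragments per kilobase of gene, scaled to the fragments counted in each tumor), which allows genes to be compared per length. *S100a8* was the highest of the 10 genes in every tumor. It stood at 906, 232, 2971, 242 and 1344 FPKM in tumors 1 to 5 of the *Ldha*-null group and at 119, 1379, 966, 345 and 375 FPKM in tumors 1 to 5 of the wild-type group. The highest value was in *Ldha*-null tumor 3 and the lowest in wild-type tumor 1, a span of 25.0-fold, and the groups overlapped over most of it. *S100a9* followed it with 810.1, 169, 1915, 164 and 1040.4 FPKM in the *Ldha*-null group and 71.1, 934, 786, 194 and 307 FPKM in the wild-type group. In FPKM, *S100a8* was 1.12 to 1.78 times *S100a9* in the 10 tumors, so their ratio spanned 1.59-fold over tumors in which *S100a9* spanned 26.9-fold.

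**Figure D1:**
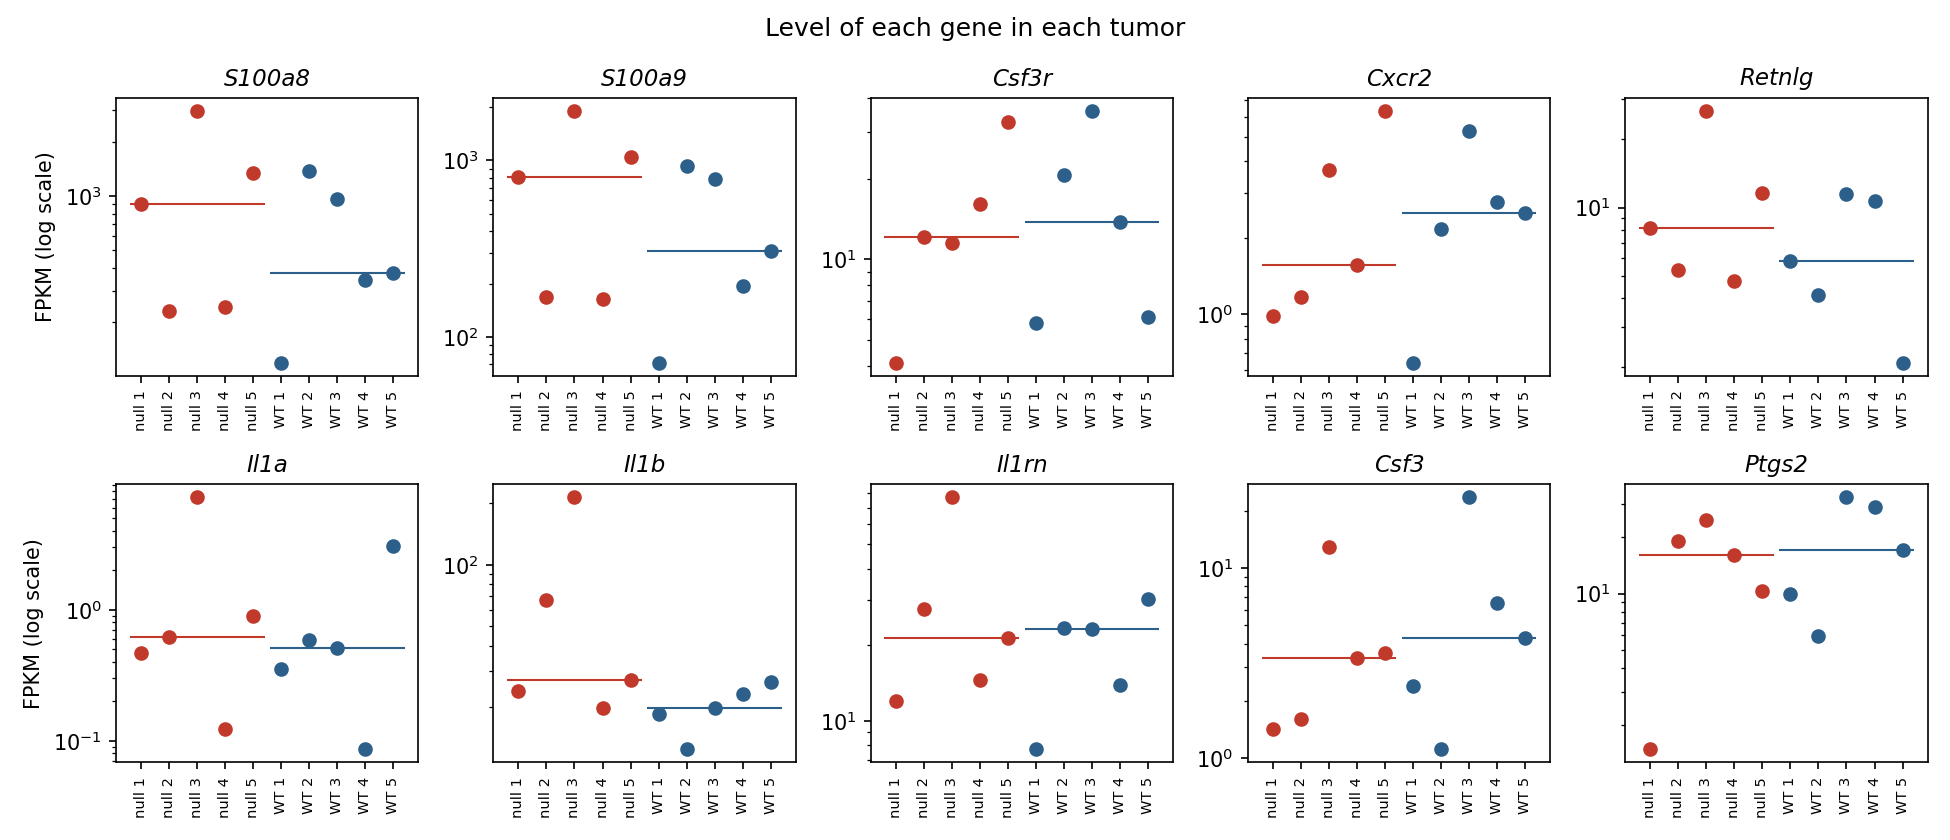
FPKM on a log scale of the 10 genes in each tumor, *Ldha*-null in red and wild type in blue, with a line at each group's median. *Ldha*-null tumor 3 was the highest of the 10 tumors for *S100a8*, *S100a9*, *Retnlg*, *Il1a*, *Il1b* and *Il1rn*, and wild-type tumor 3 for *Csf3r*, *Csf3* and *Ptgs2*.

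The genes of the neutrophil surface were far lower per length, and the order of the tumors was another. *Csf3r*, the receptor for granulocyte colony-stimulating factor, was at 4.09, 12.1, 11.5, 16.1 and 32.5 FPKM in the *Ldha*-null group and at 5.77, 20.6, 35.9, 13.7 and 6.11 FPKM in the wild-type group. *Cxcr2*, the receptor for CXC chemokines, was at 0.982, 1.17, 3.68, 1.56 and 6.33 FPKM in the *Ldha*-null group and at 0.640, 2.17, 5.24, 2.77 and 2.51 FPKM in the wild-type group. Both were highest in *Ldha*-null tumor 5 and wild-type tumor 3 in FPKM and on the TMM-scaled log2 CPM. In FPKM both were lowest in *Ldha*-null tumor 1 and wild-type tumor 1, but on the scaled values *Cxcr2* in *Ldha*-null tumor 1 (2.20) lay above *Ldha*-null tumors 2 and 4 (1.55 and 1.94), and *Csf3r* there (3.88) above wild-type tumors 1 and 5 (3.43 and 3.75). *Retnlg*, a resistin-like secreted protein of neutrophils, was at 8.13, 5.34, 26.6, 4.76 and 11.6 FPKM in the *Ldha*-null group and at 5.83, 4.14, 11.4, 10.7 and 2.08 FPKM in the wild-type group. Its highest tumor was *Ldha*-null tumor 3, as for *S100a8*, and its lowest was wild-type tumor 5, and the groups overlapped for all 3 genes.

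Some other neutrophil genes were near 0 in the same tumors, which alone does not show how many neutrophils were present. Of 30 such genes listed, 22 passed the count filter and 4 stayed under 1 FPKM in every tumor. *Ly6g*, the surface marker by which mouse neutrophils are usually sorted, was at 0 to 0.544 FPKM and was listed at 0 in 3 tumors. The granule protease *Elane* was at 0 to 0.125 FPKM and the granule enzyme *Mpo* at 0.0448 to 0.415 FPKM, while *Camp*, *Ngp* and *Ltf* stayed at or below 1.21, 1.53 and 2.85 FPKM (these 5 are named after their values were seen). *Lcn2*, which binds bacterial siderophores and is made by neutrophils and by epithelium, was at 5.75 to 79.8 FPKM. The highest of the 30 other neutrophil genes were *Stfa3*, *BC100530*, *Stfa1* and *Stfa2*, stefin A protease inhibitors that keratinocytes make too and whose near-identical copies make each value uncertain. *Stfa3* stood at 6485 FPKM in tumor 3 of the *Ldha*-null group and at 7.06 to 510.1 FPKM in the other 9, and its ratio to *Csf3r* in FPKM spanned 461-fold. The summed level of the 30 genes was 324 to 15733 FPKM in the *Ldha*-null group and 152 to 1429 FPKM in the wild-type group. The 10 genes are therefore named one by one, and not as a neutrophil content.

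In the set of IL-1 genes, *Il1b* was the higher of the 2 agonists in all 10 tumors. *Il1b* was at 23.9, 67.0, 215 and 19.8 FPKM in tumors 1 to 4 and 27.1 FPKM in tumor 5 of the *Ldha*-null group, and at 18.6, 12.4, 19.8, 23.2 and 26.4 FPKM in the wild-type group. *Ldha*-null tumors 2, 3 and 5 lay above every wild-type tumor, the last by less than 1 FPKM, and tumors 1 and 4 lay within the wild-type range. On the TMM-scaled log2 CPM used for the tests, tumors 1, 2 and 3 (5.07, 5.64 and 7.63) lay above every wild-type tumor (at most 4.50) and tumors 4 and 5 (3.87 and 4.20) did not, so which tumors exceeded the wild type depended on the scaling. *Il1a*, the agonist that keratinocytes store, was at 0.466, 0.616, 7.27, 0.122 and 0.890 FPKM in the *Ldha*-null group and at 0.354, 0.586, 0.508, 0.0859 and 3.08 FPKM in the wild-type group. Its 2 highest values were in the 2 keratin-rich tumors, and its lowest rested on 3 counts in wild-type tumor 4 and 4 counts in *Ldha*-null tumor 4. *Il1rn*, the receptor antagonist, was at 11.98, 27.7, 77.1, 14.5 and 21.2 FPKM in the *Ldha*-null group and at 7.70, 23.3, 23.1, 13.8 and 30.3 FPKM in the wild-type group, and was likewise highest in *Ldha*-null tumor 3. Per length, *Il1b* was 0.532 to 2.79 times *Il1rn*, with the ratio highest in *Ldha*-null tumor 3 and lowest in wild-type tumor 2.

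The 2 genes that IL-1 can induce peaked in another tumor. *Csf3* was at 1.42, 1.60, 12.9, 3.37 and 3.56 FPKM in the *Ldha*-null group and at 2.39, 1.11, 23.7, 6.56 and 4.30 FPKM in the wild-type group. *Ptgs2*, which makes the precursor of prostaglandins, was at 1.48, 19.1, 24.8, 15.98 and 10.4 FPKM in the *Ldha*-null group and at 9.91, 5.94, 32.8, 28.8 and 17.0 FPKM in the wild-type group. Both were highest in wild-type tumor 3, and *Ptgs2* was lowest in *Ldha*-null tumor 1, the tumor with muscle RNA. The range of log2 CPM over tumors placed *Il1a* (5.84), *S100a9* (5.09) and *S100a8* (4.99) above 94.6%, 91.9% and 91.5% of the 15176 tested genes, whereas *Csf3r* (2.67) lay above 65.7% of them.

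Between genotypes, none of the 10 genes passed an adjusted p of 0.05 in edgeR's quasi-likelihood test, in which 0 of 15176 genes (0%) were called. DESeq2 called 3 genes (0.0125%), none of them among the 10. *Il1b* had the smallest p of the 10, with 70.7 ± 37.2 FPKM in the *Ldha*-null group against 20.1 ± 2.36 FPKM in the wild-type group (mean ± SEM, n = 5 each) and a fitted log2 fold change of 2.01 (standard error 0.68, 95% interval 0.51 to 3.51, unadjusted p = 0.0135 and adjusted p = 0.999 from edgeR). It was the single gene of the 10 with an unadjusted p under 0.05, against 3.96% of all tested genes. *Ldha*-null tumor 3 held 47.5% of the summed *Il1b* FPKM of the 10 tumors. Without that tumor the means were 34.5 ± 10.95 FPKM (n = 4) and 20.1 ± 2.36 FPKM (n = 5), and the log2 fold change was 0.89 (edgeR unadjusted p = 0.0546). The exact permutation test on log2 CPM gave p = 0.0714 with all tumors (two-sided over all assignments of 5 tumors of 10, smallest possible p 0.00794), and 4 of 5 *Ldha*-null tumors lay above the wild-type median.

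The other 9 genes had unadjusted p from 0.148 to 0.897 in edgeR's test, and an adjusted p of 0.999 each. *S100a8* was at 1139 ± 504 FPKM in *Ldha*-null and 637 ± 232 FPKM in the wild-type group (SEM, n = 5 each). Its log2 fold change was 1.13 (95% interval -0.71 to 2.96), and *S100a9* had 1.15 (-0.73 to 3.02). *Retnlg* had a log2 fold change of 0.97 (-0.40 to 2.35), *Il1a* 1.17 (-1.38 to 3.73) and *Il1rn* 0.80 (-0.45 to 2.05). These intervals take in no change and changes of over 4-fold upward. Without the 3 tumors that stood apart, the sign turned for *S100a8* (-0.31), *S100a9* (-0.21) and *Retnlg* (-0.25), and without *Ldha*-null tumor 3 alone that of *Il1a* turned (-0.75). Without that tumor *Il1rn* had 0.02, with means of 18.8 ± 3.53 FPKM (n = 4) and 19.6 ± 3.97 FPKM (n = 5, SEM), while *S100a8* had 0.39, *S100a9* 0.58 and *Retnlg* 0.35. *Csf3r* was at 15.3 ± 4.73 against 16.4 ± 5.59 FPKM and *Cxcr2* at 2.74 ± 1.02 against 2.67 ± 0.742 FPKM (SEM, n = 5 each), with log2 fold changes of -0.07 and 0.10 whose signs changed with single tumors. *Csf3* had -0.54 (-2.44 to 1.35), which was 0.48 without wild-type tumor 3, and *Ptgs2* had -0.34 (-1.69 to 1.02). The exact permutation p of these 9 genes ran from 0.238 for *Retnlg* to 0.881 for *Cxcr2* (n = 5 against 5), and no gene of the 10 had groups that did not overlap, against 0.185% of tested genes.

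**Figure D2:**
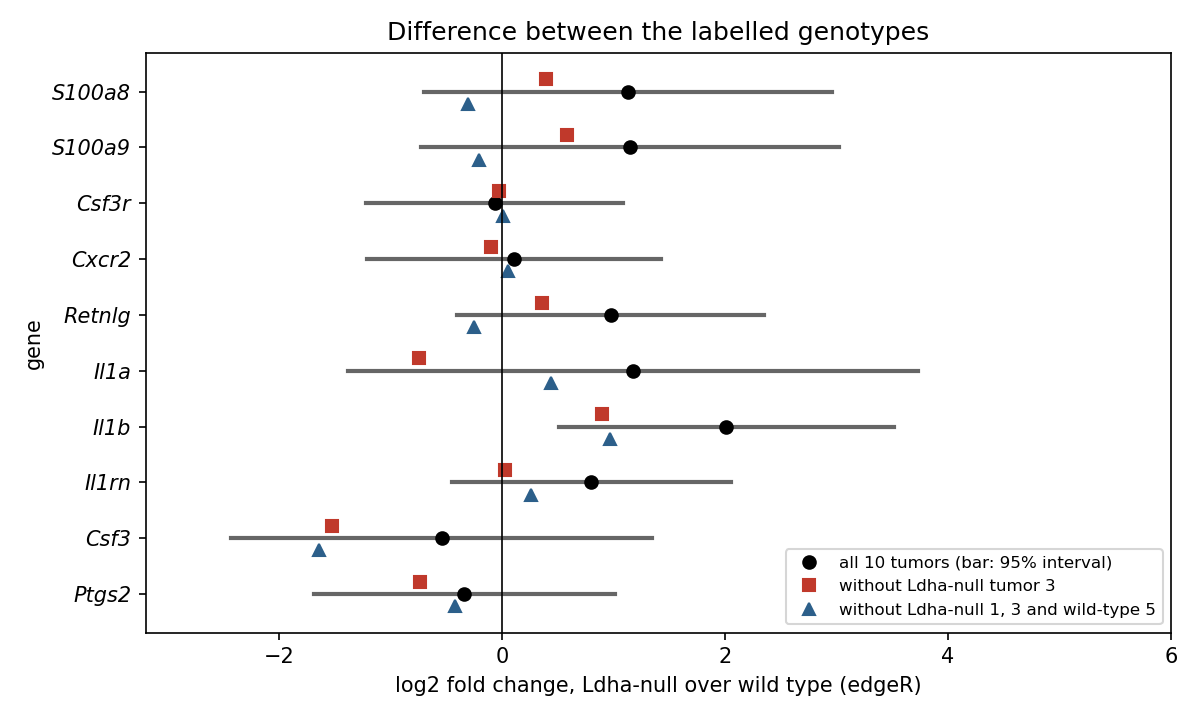
Fitted log2 fold change (*Ldha*-null over wild type) of each gene with all 10 tumors (black, with the 95% interval), without *Ldha*-null tumor 3 (red squares) and without the 3 tumors that stood apart (blue triangles). The interval of *Il1b* alone lay above 0, and its value was 2.01 with all tumors and 0.89 without *Ldha*-null tumor 3.

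The keratinocyte lists also varied between tumors. The summed level of 8 basal keratinocyte genes was 1083 to 31629 FPKM in *Ldha*-null and 416 to 35708 FPKM in the wild-type group, and that of 8 differentiation genes 222 to 13023 and 42.9 to 5135 FPKM, with all 8 of these genes fitted higher in *Ldha*-null tumors (0 of 8 passed). With the basal keratinocyte level as a covariate, the log2 fold change of *S100a8* was 0.14, of *S100a9* 0.28, of *Il1rn* 0.30 and of *Il1b* 1.29, and with the leukocyte gene *Ptprc* as a covariate they were 1.21, 1.14, 0.80 and 2.05. *Retnlg* had 0.71 with the keratinocyte and 0.92 with the *Ptprc* covariate, and *Csf3* had -1.05 and -0.52. Whether keratinocyte content accounts for any of these differences was not tested. The summed level of 6 red cell genes was 72357 FPKM in tumor 3 of the *Ldha*-null group and 307 to 2545 FPKM in the other 9, and its part in the result was not tested.

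*S100a8* and *S100a9* were then set against leukocyte genes tumor by tumor, since keratinocytes can make both. Per length, *S100a8* over *Csf3r* was 221, 19.2, 258, 15.0 and 41.3 in *Ldha*-null tumors and 20.6, 67.0, 26.9, 25.1 and 61.4 in wild-type tumors. The 2 highest ratios were in *Ldha*-null tumors 1 and 3, where *Csf3r* was at 4.09 and 11.5 FPKM, and the span of 17.2-fold over 10 tumors was 4.46-fold over the 7 with high *Vim*. *S100a8* over *Ptprc*, the CD45 gene that all leukocytes express, was 483, 6.14, 241, 13.6 and 38.8 in *Ldha*-null tumors and 10.5, 35.4, 42.7, 22.4 and 61.9 in wild-type tumors. The 3 tumors with low *Vim* held the 3 highest values of this ratio, and the span was 78.7-fold with them and 6.96-fold without. *S100a8* over *Cxcr2* spanned 7.40-fold, with 922 and 807 in *Ldha*-null tumors 1 and 3, and 5.09-fold over the 7 tumors. *S100a8* over *Retnlg* spanned 16.3-fold over the 10 tumors and likewise over the 7, with its highest value, 333, in wild-type tumor 2.

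*Krt14*, the keratin of basal keratinocytes, did not give a steadier ratio. *S100a8* over *Krt14* ran from 0.0131 in wild-type tumor 5 to 1.46 in wild-type tumor 3, a span of 111-fold, or 13.2-fold over the 7 tumors. Wild-type tumor 5 and *Ldha*-null tumor 3 had nearly the same *Krt14*, yet *S100a8* was at 375 FPKM in the former and 2971 FPKM in the latter. *S100a8* over *Krt6a*, a keratin of wounded and hyperproliferative epidermis, ran from 0.0537 to 17.5, and over *Krt10*, a keratin of differentiating epidermis, from 1.56 to 72.6. The 8 ratios of *S100a8* and *S100a9* to *Csf3r*, *Cxcr2*, *Retnlg* and *Ptprc* were compared between genotypes, and 0 of 8 passed an adjusted p of 0.05 (two-sided exact permutation tests). The differences in mean log2 ratio ranged from 0.01 for *S100a8* over *Retnlg* (p = 0.984, exact) to 0.92 for *S100a9* over *Ptprc* (p = 0.516, exact), and the smallest p was 0.198 for *S100a8* over *Cxcr2* (exact, 0.688 adjusted over the 8).

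**Figure D3:**
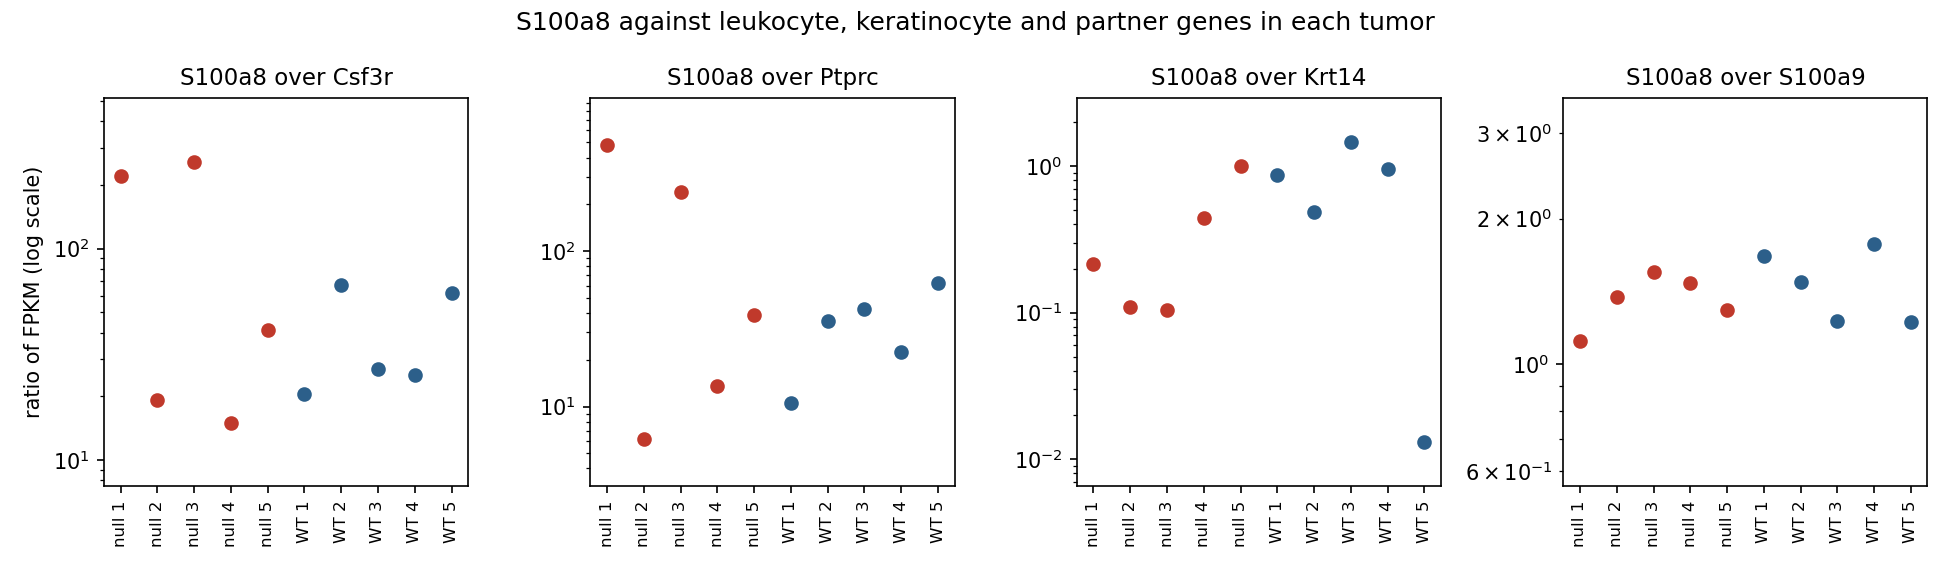
FPKM of *S100a8* divided by that of *Csf3r*, *Ptprc*, *Krt14* and *S100a9* in each tumor, on log scales of different range, *Ldha*-null in red and wild type in blue. The ratio to *S100a9* stayed between 1.12 and 1.78, while that to *Ptprc* ran from 6.14 to 483 and that to *Krt14* from 0.0131 to 1.46.

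Over the 10 tumors, 41 of the 45 pairs of the genes had a positive Pearson r of log2 CPM. The pair *S100a8* and *S100a9* had r = 0.99 and rho = 0.98 (permutation p = 1e-05, the smallest that 100000 resamples can give, and 4e-05, with 0.00045 and 0.0018 adjusted over the 45 pairs). It was as tight without the 2 tumors farthest from the median (r = 0.99) and over the 7 tumors (r = 0.99, exact p = 0.000794). *Il1a* and *Il1rn* had r = 0.85 and rho = 0.76 (permutation p = 0.00222 and 0.0144, adjusted 0.04995 and 0.216), but r was 0.53 and rho 0.52 without *Ldha*-null tumor 3 and wild-type tumor 5, and 0.49 and 0.61 over the 7 tumors (exact p = 0.266 and 0.167), where fewer tumors were tested. *Il1b* and *Il1rn* (r = 0.79, adjusted permutation p = 0.122) had r = 0.31 without *Ldha*-null tumors 2 and 3. The remaining pairs had an adjusted permutation p of at least 0.122 for Pearson's r.

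Several pairs differed between the 10 tumors and the 7 with high *Vim*. *S100a8* and *Csf3r* had r = 0.41 over 10 tumors and 0.88 over the 7, and *S100a9* and *Csf3r* had 0.40 and 0.91 (exact p over 7 tumors 0.00635 and 0.00556, both 0.0714 adjusted over 45 pairs). *Csf3r* and *Cxcr2*, the 2 neutrophil receptors, had r = 0.70 and 0.93 (exact p over 7 tumors 0.00317, 0.0714 adjusted). In the opposite direction, *S100a8* and *Il1b* had r = 0.45 over 10 tumors and -0.34 over the 7, and *Il1a* and *Il1b* had 0.71 and 0.16. *Retnlg* also had a lower r over the 7 with *S100a8* (0.64 and 0.31) and with *S100a9* (0.60 and 0.31). With *Csf3r* (0.26 and 0.47) and *Cxcr2* (0.46 and 0.72) its r was higher over the 7. *Csf3* and *Ptgs2* had similar values, 0.69 and 0.79. With 7 tumors and 45 pairs, these differences of r were described and not tested.

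**Figure D4:**
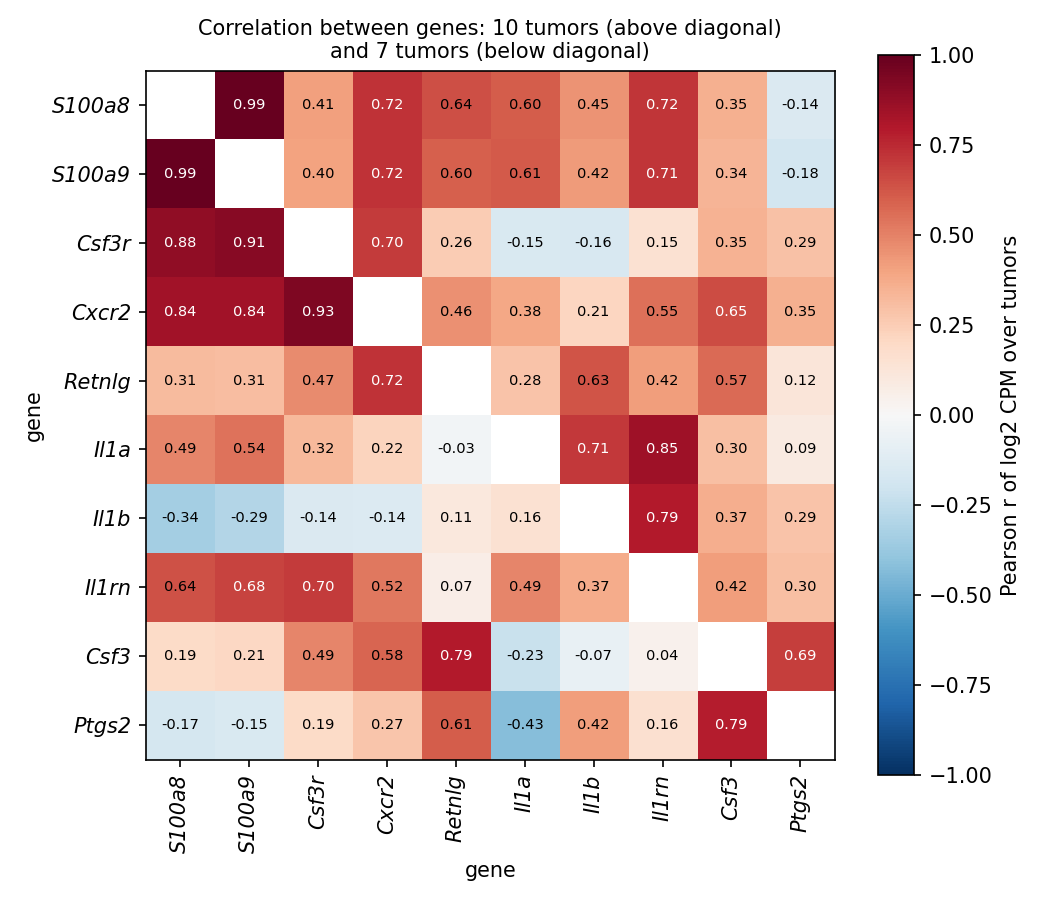
Pearson r of log2 CPM for each pair of genes over 10 tumors (above the diagonal) and over the 7 tumors without *Ldha*-null 1, *Ldha*-null 3 and wild-type 5 (below it), from blue at -1 to red at 1. *S100a8* and *S100a9* had 0.99 in both, and the block of *S100a8*, *S100a9*, *Csf3r* and *Cxcr2* was darker below the diagonal (0.84 to 0.99) than above it (0.40 to 0.99). *Retnlg* was lower below it with *S100a8* and *S100a9* (0.31 each, against 0.64 and 0.60 above). With *Csf3r* and *Cxcr2* it was higher below (0.47 and 0.72, against 0.26 and 0.46).

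The genes were also set against the mean log2 CPM of 8 basal keratinocyte and 8 pan-leukocyte genes (20 relations, added after the data were seen). *Il1a* followed the keratinocyte list with r = 0.85 and rho = 0.92 over 10 tumors (permutation p = 0.00285 and 0.00038, adjusted 0.0556 and 0.0076). Without *Ldha*-null tumor 3 and wild-type tumor 5 its r was 0.54, and over the 7 tumors r was 0.39 and rho 0.79 (exact p = 0.370 and 0.048). *Il1rn* had r = 0.78 with the keratinocyte list over 10 tumors (permutation p = 0.00556, adjusted 0.0556). This r was 0.62 without *Ldha*-null tumor 3 and wild-type tumor 5, and 0.71 over the 7 tumors (exact p = 0.0637). With the leukocyte list *Il1rn* had r = 0.89 and rho = 0.96 over the 7 tumors (exact p = 0.00139 and 0.00278, 0.0278 adjusted for r), against an r of -0.21 over all 10. Over 10 tumors *S100a8* had r = 0.51 with the keratinocyte and -0.25 with the leukocyte list (permutation p = 0.135 and 0.478), whereas *Csf3r* had -0.28 and 0.60 (permutation p = 0.432 and 0.0669). None of these 4 passed after adjustment. The contrast was not seen over the 7 tumors, where r was positive for both genes with both lists. There *S100a8* had 0.60 with the keratinocyte and 0.48 with the leukocyte list, and *Csf3r* had 0.57 and 0.37.

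For each gene, the 3 other tested genes with the highest Pearson r of log2 CPM over the 10 tumors were listed. They were *Nek1* (0.98), *Rnase2b* (0.97) and *Rpl23* (0.93) for *S100a8*, and *Nek1* (0.97), *Rnase2b* (0.96) and *Chil1* (0.95) for *S100a9*. *Rnase2b* ran from 0.230 to 81.5 FPKM, with its highest value in *Ldha*-null tumor 3. For *Csf3r* they were *Icos* (0.97), *Cd6* (0.96) and *Unc13d* (0.95), for *Cxcr2* *Gm2670* (0.94), *Nol8* (0.90) and *Gm15453* (0.88), and for *Retnlg* *Il1r2* (0.88), *Cd177* (0.86) and *1100001G20Rik* (0.84). For *Il1a* they were *Hnrnpc* (0.98), *Fam89a* (0.98) and *Taf1* (0.97), for *Il1b* *Cxcl2* (0.93), *Erg* (0.91) and *Bend5* (0.91), and for *Il1rn* *Msmo1*, *Gm5416* (0.96 each) and *Nkrf* (0.95). For *Csf3* they were *Pafah2* (0.96), *Snhg12* (0.88) and *Nqo1* (0.86), and for *Ptgs2* *Has2* (0.96), *Pgd* (0.92) and *Dip2b* (0.91). They are the highest of 15176 genes over 10 points, and are a description only.

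The partners of the 10 genes were read from lists of the pathway, in none of which a gene passed. Among the 5 ligands of *Cxcr2*, 3 were fitted higher and 2 lower in *Ldha*-null tumors. *Cxcl2* was at 13.6, 35.6, 213, 10.3 and 4.89 FPKM in the *Ldha*-null group and at 17.0, 6.07, 6.14, 13.7 and 13.9 FPKM in the wild-type group, and like *Il1b* it was highest in *Ldha*-null tumors 3 and 2. Its log2 fold change was 2.52 (edgeR unadjusted p = 0.0259, adjusted 0.999), and without *Ldha*-null tumor 3 its means were 16.1 ± 6.73 FPKM (n = 4) and 11.4 ± 2.22 FPKM (n = 5). *Cxcl1* had the highest mean of them per length, at 3.74 to 45.4 FPKM in *Ldha*-null and 21.9 to 102 FPKM in the wild-type group (log2 fold change -1.32, edgeR unadjusted p = 0.083). *Cxcl5* was highest in wild-type tumor 3 (71.1 FPKM), as were *Csf3* and *Ptgs2*, and *Cxcl3* in *Ldha*-null tumor 3 (27.8 FPKM).

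Of the 15 IL-1 receptors and signalling genes, 8 were fitted higher and 7 lower, with a median log2 fold change of 0.03 against 0.02 for all 15176 genes. *Il1r1*, the signalling receptor, was at 1.47 to 9.64 FPKM and its partner *Il1rap* at 1.63 to 22.3 FPKM. *Il1r2*, a decoy receptor that neutrophils carry, was at 4.33 to 18.7 FPKM, and it exceeded *Il1r1* per length by 4.84-fold in *Ldha*-null tumors 1 and 3 and was 0.505 times it in wild-type tumor 1. The most abundant of the list were *Irak1*, *Tollip* and *Myd88*, adaptors and a kinase of the pathway, at means of 25.5 to 78.8 FPKM in the wild-type group, and *Il1rl1*, the IL-33 receptor, which was at 12.1 ± 4.11 FPKM in *Ldha*-null and 33.2 ± 9.07 FPKM in the wild-type group (SEM, n = 5 each, edgeR unadjusted p = 0.082). Among the 8 further IL-1 family ligands, 6 were tested, 5 fitted higher and 1 lower, with a median of 1.13. *Il36a* and *Il36g*, epidermal members of the family, were at 114 and 90.4 FPKM in tumor 3 of the *Ldha*-null group and at 13.6 and 56.7 FPKM in wild-type tumor 5, the 2 keratin-rich tumors, and at most at 9.79 and 10.8 FPKM in the others. *Il18* and *Il33* were at 3.27 to 37.3 and 0.887 to 41.7 FPKM.

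Among the 10 genes of the inflammasome and IL-1 processing, 3 were fitted higher and 7 lower (median -0.15). *Casp1*, the protease that cleaves pro-IL-1 beta, was at 4.22 to 56.8 FPKM in the *Ldha*-null group and at 51.7, 59.4, 430.3, 104 and 34.3 FPKM in the wild-type group, with *Casp4* and other neighbours on chromosome 9 likewise highest in wild-type tumor 3 (*Casp4* 216 FPKM). *Pycard*, the adaptor of the inflammasome, was highest in *Ldha*-null tumor 3 (167 FPKM), and *Capn2* was at 26.4 to 110.2 FPKM. *Il1b* itself stood at 19.8 FPKM in wild-type tumor 3. Of 17 NF-kB and IL-1 target genes, 6 were fitted higher and 11 lower (median -0.23), with *Saa3*, *Mmp3*, *Nfkbia* and *Ccl2* the most abundant and *Mmp3* from 2.75 to 525 FPKM. Of 18 tested genes of prostaglandin synthesis and reception, 6 were fitted higher and 12 lower (median -0.09). *Ptges*, the synthase that works behind *Ptgs2*, was at 104 ± 24.1 FPKM in *Ldha*-null and 171 ± 34.9 FPKM in the wild-type group (SEM, n = 5 each), and *Ptgs1*, *Ptges3* and *Alox5ap* had higher means than *Ptgs2* per length. The receptor *Ptger4* was at 0.750 to 8.61 FPKM.

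Among the 5 tested colony stimulating factors and receptors besides *Csf3* and *Csf3r*, 1 was fitted higher and 4 lower (median -0.12), and the macrophage genes *Csf1* and *Csf1r* led them, both lowest in *Ldha*-null tumor 1 and highest in *Ldha*-null tumor 2. The 14 tested S100 genes besides *S100a8* and *S100a9* had 3 fitted higher and 11 lower, with a median log2 fold change of -0.50, where *S100a8* and *S100a9* had 1.13 and 1.15 with all tumors and -0.31 and -0.21 without the 3 tumors that stood apart. *S100a6* was at 3144 ± 1030.2 against 5073 ± 834 FPKM and *S100a4* at 2107 ± 850.1 against 3485 ± 1086 FPKM in *Ldha*-null and wild-type tumors (SEM, n = 5 each). Both were lowest in *Ldha*-null tumor 1, at 293 and 48.8 FPKM, a tumor in which *S100a8* stood at 906 FPKM. Of 6 receptors for S100A8 and S100A9, 3 were fitted higher and 3 lower (median -0.14). *Bsg*, *Cd14*, *Emb* and *Ly96* were the most abundant, and *Tlr4* was at 2.22 to 18.0 FPKM. Of the 22 tested neutrophil genes outside the 10, 17 were fitted higher and 5 lower (median 0.44), against 52.8% of all tested genes fitted higher. This count includes *Ldha*-null tumor 3, where the list summed to 15733 FPKM against at most 1429 FPKM elsewhere, and was not repeated without it. In that tumor *Stfa3*, *BC100530*, *Stfa1* and *Stfa2* were at 6485, 6495, 1685 and 787 FPKM. The sum therefore says little of the other genes in the list. The 8 pan-leukocyte genes had 3 higher and 5 lower (median -0.11).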

How the data were processed

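RNA-seq of 10 mouse tumors, 5 of each genotype by their labels, was used. By the study's methods, polyadenylated RNA was sequenced and reads were aligned to mm10 with TopHat2. The deposited counts are whole numbers of fragments per gene, made by the authors with HTSeq (union mode). The deposited FPKM values were computed by the authors from the counts and a gene length that differed from the listed one for 6 of the 10 genes but was the same in every tumor. The length behind the FPKM was 2065 bases for *Csf3r* (3481 listed), 808 for *Il1b* (1356) and 1118 for *Il1rn* (2474). Ratios between genes therefore carry a constant set by the length used, which was not worked out for genes outside the 10. Tool versions and strand are not stated, and *Il1a* and *Il1b* overlap antisense genes of at most 0.336 and 0.126 FPKM.

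Counts were tested with edgeR 4.0.16 in R 4.3.3: filterByExpr (minimum count 10, minimum total 15) left 15176 genes, scaled by TMM, with the quasi-likelihood F-test and Benjamini-Hochberg adjustment at 0.05. Single genes and log2 ratios were compared by exact permutation of log2 CPM (prior count 2), and correlations by permutation (numpy 2.4.6, with ranks from scipy 1.17.1). The series describes separate mice. Where counts are high, counting error is small beside a biological coefficient of variation of 63.4%, and intervals rest on the spread between tumors. It is not small for *Il1a* in tumors with few counts (3 in wild-type tumor 4 and 4 in *Ldha*-null tumor 4). No pair of libraries within a group came close to counting noise. The edgeR step was tested on simulated data with set changes. At an adjusted p under 0.05 it recovered 1.52% of 2-fold, 30.6% of 4-fold and 73.0% of 8-fold changes. The simulated counts were drawn gene by gene, so tumors that stand apart over many genes at once were not part of it. In the real data 0 of 8 skeletal muscle genes passed, at a median log2 fold change of 8.80. The absence of called genes therefore does not exclude changes of 2-fold, 4-fold or more.

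The 10 genes and all 21 other lists were chosen with earlier results of these data known. The text names the 10 genes, the 4 genes of highest mean FPKM in a list it describes, genes that the naming rule gives by symbol, and the 3 genes most like each of the 10. Others are said to be named after their values were seen. Alternatives were DESeq2 1.42.0, other scaling and filters, limma-voom (limma 3.58.1), a replicate block, covariates and left-out tumors. Reads and isoforms were not analysed here, and 1 item of the tumor model is not reported here.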

Additional observations from a re-analysis of the deposited data

How the results depend on the processing

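No gene of the 10 was called under any alternative, and the count over all genes was 0 in each (edgeR 601 and limma-voom 321 at an unadjusted p under 0.05) except DESeq2, which called 3 of 23969 (*G0s2*, *Chodl* and *Trim12a*, named after their values were seen and none of them among the 10). DESeq2 gave *Il1a* no p. Leaving out the 3 tumors that stood apart turned the log2 fold change of *S100a8* to -0.31, *S100a9* to -0.21, *Retnlg* to -0.25 and *Csf3r* to 0.0074. *Csf3r* was also 0.30 with limma-voom, 0.14 with the basal keratinocyte covariate, 0.019 with *Ptprc* as a covariate and 0.086 with the tumor number as a replicate block, and *Cxcr2* was -0.011 with the basal keratinocyte covariate. Leaving out 1 tumor at a time gave *Csf3r* -0.42 to 0.42, *Cxcr2* -0.28 to 0.47, *Il1a* -0.75 to 2.62, *Csf3* -1.53 to 0.48, *Il1rn* 0.02 to 1.10, *S100a8* 0.39 to 1.59 and *Il1b* 0.89 to 2.26. *Il1b* was 0.94 (unadjusted p = 0.101) with limma-voom, 1.35 (0.0948) with the replicate block and 1.29 (0.0816) with the basal keratinocyte covariate, each without an unadjusted p under 0.05, and limma-voom gave *S100a8* 0.33, *S100a9* 0.46 and *Retnlg* 0.11. The number of genes with an exact permutation p under 0.05 was 0 to 1 with 1 tumor left out, the 1 being *Il1b* without *Ldha*-null tumor 4 or 5 (its p ran from 0.0159 to 0.151, n = 4 or 5, exact). No S100 ratio passed under any alternative. By Pearson's r, the count of member pairs past an adjusted permutation p of 0.05 was 2, and 1 on the log2 FPKM scale, over the 7 tumors and without the 2 farthest tumors, and that of list relations was 0 over 10 tumors and 1 over the 7, while by Spearman's rho *Il1a* with the keratinocyte list passed over 10 tumors (adjusted p = 0.0076). The cause was not tested. The labels do not say whether equal tumor numbers pair the samples, and the same-number correlations (-0.51 to 0.55) cannot settle it. With the replicate block 0 genes were called and 120 had an unadjusted p under 0.05, against 601 without it and 194 without *Ldha*-null tumor 1. Permuting within numbers allows no p under 0.0625.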

Other observations

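Cell types outside the IL-1 and neutrophil genes were read from lists in the same test, and 0 genes passed in any of them. All 8 fibroblast genes were fitted lower in *Ldha*-null tumors (median log2 fold change -0.38), as were 7 of 11 macrophage and monocyte genes (-0.16), 5 of 7 T cell genes (-0.13) and 4 of 5 tested mast cell and eosinophil genes (-0.58). All 6 tested endothelial genes were fitted higher (0.60), as were 8 of 10 genes of stressed or hyperproliferative keratinocytes (0.49), the 6 red cell genes (4.05) and the 8 skeletal muscle genes (8.80), the last 2 lists being highest in *Ldha*-null tumor 3 and tumor 1.

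The level of *Casp1* in wild-type tumor 3 was shared by its neighbours on mm10 chromosome 9, which are described here as values (the window was drawn after the data were seen). Of 27 tested genes between 3000282 and 8134294, 23 were higher in wild-type tumor 3 than in each of the other 9 tumors, against 9.98% of all tested genes, and 21 of the 27 exceeded the median of the other 9 by over 2 on the log2 CPM scale, against 1.32% of all tested genes. The median difference over the 27 genes was 3.18, and over all tested genes 0.01. *Casp1* (5298517 to 5307265) was at 430.3 FPKM against a median of 51.7, *Casp4* at 216 against 24.1, *Birc3* (7848699 to 7873186), an inhibitor of apoptosis in NF-kB signalling, at 220 against 31.1, *Birc2* at 294 against 13.9, *Yap1*, a transcriptional effector of the Hippo pathway, at 697 against 53.3, and *Dcun1d5* at 1193 against 55.7. The next tested genes beyond, *Trpc6* (from 8544196) and *Arhgap42*, differed by 0.51 and 0.77 on that scale. *Mmp8*, a collagenase of neutrophil granules, *Mmp3* and *Mmp13* lie in the same interval and differed by 1.47, 1.77 and 1.24, while *Mmp12* (-0.21) and *Mmp10* (0.03) did not stand out. The cause was not tested. The log2 fold change of *Casp1* between genotypes, -1.65 (edgeR unadjusted p = 0.0471), includes this tumor: the wild-type mean was 136 ± 74.5 FPKM with it (n = 5) and 62.4 ± 14.9 FPKM without it (n = 4), against 42.03 ± 9.73 FPKM in *Ldha*-null tumors (SEM, n = 5). *Birc2*, *Birc3*, *Yap1*, *Dcun1d5*, *Trpc6*, *Arhgap42*, *Mmp8*, *Mmp10*, *Mmp12* and *Mmp13* are named after their values were seen.

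The highest and the lowest tumor of a group were tested against the others in 20 groups of 5, 1 for each of the 10 genes in each genotype, and none passed Dixon's critical value of 0.71, *Csf3* in *Ldha*-null tumor 3 coming nearest.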
